A study of Rattus norvegicus with 7 samples.

Results

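The step from postnatal day 1 (P1) to postnatal day 3 (P3) in the small RNA of the rat retina was described over every deposited feature with a locus length of at least 50 bases, 5006 of 5491 features in all. A feature is a stretch of an annotated noncoding transcript with 1 deposited level per age. Both ages were taken from untreated Wistar WU rats kept under a 12:12 light and dark cycle, with the day of birth counted as P0, and the labels name no difference between the groups but age. Each age was 1 library made from the pooled RNA of 3 retinal samples and read on an Ion Torrent instrument, so there was no replicate check and no test between P1 and P3. The other 5 ages of the series, P5 to P21, served only to place the P3 level.

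Levels are in FPKM as the authors deposited them, a unit named for fragments scaled by feature length and by mapped fragments. The study's methods do not state how Cuffdiff scaled the libraries to each other. A change in FPKM is therefore not to be read as a change in share of the library. A change is the log2 ratio of P3 to P1 after adding 1 FPKM to each, and a feature was called higher or lower at a 2-fold difference. The intervals in brackets after a change are 95% intervals that cover counting error only, and the variation between animals is not in them. They rest on alignments recovered from the values. At P1, the low FPKM values of a given locus length were whole multiples of 1 step, in each of 4661 values under 200 steps (tolerance 0.02 steps). By this step the features of at least 50 bases held 292533 alignments at P1. At P3 the low values were sums of 2 different steps, a fine step worth 0.793 P1 steps and a coarse step worth 1.57 P1 steps. All 4392 low P3 values at the lengths with a known step could be written as such a sum, and for 4501 of 4863 features above 0 only 1 sum was possible. For these features the P3 value was divided into a fine-step part and a coarse-step part, and the level of each part was given on the FPKM scale as if the deposited value were the mean of both. The study's methods state that every pool was sequenced 2 times, but the steps carry no label and were not assigned to sequencing runs. At P3 the features of at least 50 bases held about 583454 alignments. The limits were 333109 and 658508, if all signal belonged to the coarse or to the fine step. Changes are given for the 1606 features with a mean of at least 20 alignments over P1 and P3, of which 1245 could be divided into parts. A feature high at only 1 of these ages can pass this filter through that age alone.

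MicroRNAs (miRNAs) are short RNAs cut from hairpin precursors that guide the silencing complex to messenger RNAs, chiefly by pairing through the seed near their 5′ end. In the newborn rat retina the last progenitors are still dividing while rods, bipolar cells and Müller glia are being born, and miRNAs of proliferation, of developmental timing and of the neuronal and photoreceptor programmes are expressed side by side. Small nucleolar RNAs (snoRNAs) guide the chemical modification of ribosomal and spliceosomal RNA, small nuclear RNAs (snRNAs) form the spliceosome, and the mitochondrial tRNAs serve translation inside mitochondria.

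Mature sequences of 20 miRNAs the results turn on are shown, taken from RefSeq (build GRCr8) and written 5′ to 3′ with the seed, bases 2 to 8, in capitals. The deposited levels belong to hairpin loci and do not separate the arms, so the arm usually loaded is shown where RefSeq lists both. Of 279 tested miRNA symbols, 196 had a mature sequence there. The first set is that of miRNAs known from muscle, lens and surface epithelium whose P3 alignments lay mostly in the coarse-step part.
rno-miR-1b: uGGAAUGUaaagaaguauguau
rno-miR-133b-3p: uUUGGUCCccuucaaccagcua
rno-miR-133c: cAGCUGGUugaaggggaccaa
rno-miR-205: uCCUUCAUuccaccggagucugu
rno-miR-184: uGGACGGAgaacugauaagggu

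The sequence of rno-miR-133c, which RefSeq gives for the Mir3582 locus, runs opposite to that of the miR-133 family. Its reverse complement shares an unbroken run of 20 bases with rno-miR-133b-3p. The second set holds miRNAs of the retina and its pigment epithelium, of which all but Mir204 were called higher at P3. In this set Mir181a2 and Mir181c share a seed, as do Mir204 and Mir211.
rno-miR-96-5p: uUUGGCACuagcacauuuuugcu
rno-miR-183-5p: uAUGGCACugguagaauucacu
rno-miR-181a-5p: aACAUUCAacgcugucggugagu
rno-miR-181c-5p: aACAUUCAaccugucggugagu
rno-miR-204-5p: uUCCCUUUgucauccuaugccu
rno-miR-211-5p: uUCCCUUUgucauccuuugccu

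The third set holds miRNAs that were lower at P3 and their relatives. Mir15b, Mir16 and Mir195 share a seed, Mir503 has another, and miR-451 is the erythroid miRNA.
rno-miR-15b-5p: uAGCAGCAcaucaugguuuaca
rno-miR-16-5p: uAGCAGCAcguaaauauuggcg
rno-miR-195-5p: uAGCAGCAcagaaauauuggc
rno-miR-503-5p: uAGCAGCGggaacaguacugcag
rno-miR-451-5p: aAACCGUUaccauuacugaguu

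The last set shows abundant miRNAs of the newborn retina, Mir20a and Mir106b with the miR-17 seed and the miR-19 miRNAs with a seed of their own.
rno-miR-20a-5p: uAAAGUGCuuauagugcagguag
rno-miR-106b-5p: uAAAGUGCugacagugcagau
rno-miR-19a-3p: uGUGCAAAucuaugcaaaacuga
rno-miR-19b-3p: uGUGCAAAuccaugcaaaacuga

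Among the features of at least 50 bases, the makeup of the library differed between P1 and P3, most of all in the share of snoRNAs. All shares below are of the alignments in these features. miRNAs took 60.4% of the alignments at P1 and 37.5% at P3, whereas snoRNAs took 1.98% at P1 and 37.7% at P3. The P3 shares are estimates. Of about 583454 alignments, 92483 fine-step and 22239 coarse-step alignments were resolved. The rest, and so most of them, were estimated from the share of each step in the resolved features of their biotype. The share of mitochondrial tRNAs was 0.953% at P1 and 4.97% at P3, and that of snRNAs was 1.17% at P1 and 3.89% at P3. Fragments of long noncoding RNAs (lincRNAs) went the other way, from 23.0% to 10.5%, and fragments of processed transcripts from 7.29% to 1.99%. In summed FPKM, the miRNAs stood at 12169583 at P1 and 13464892 at P3, while the snoRNAs stood at 484063 at P1 and 16903873 at P3. Less RNA of a kind per cell and fewer cells that carry it cannot be told apart in such pools.

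Over all classes 402 of 1606 features (25.0%) were at least 2-fold higher at P3 and 381 (23.7%) were at least 2-fold lower, around a median change of -0.28. Scaling the libraries to the median ratio of all features adds 0.27 to every change, and scaling to the miRNA total takes 0.15 off (a shift of -0.15). The level per miRNA alignment replaces the FPKM ratio by the ratio of estimated alignments, shifted by -0.31, so its effect differs by feature. With it Mir143 went from 0.72 to -0.10 and Mir99b from 0.42 to 0.37. The calls were spread unevenly. Of the higher features 198 were snoRNAs, 68 were snRNAs and 39 were miRNAs, and of the lower features 227 were lincRNAs and 88 were processed transcripts. The median change was 4.80 [4.54, 4.99] for 208 snoRNAs, 2.27 [1.97, 2.58] for 80 snRNAs and 2.03 [1.80, 2.89] for 22 mitochondrial tRNAs. It was 0.02 [-0.14, 0.12] for 280 miRNAs, -0.66 [-0.72, -0.60] for 693 lincRNAs and -0.89 [-1.01, -0.78] for 202 processed transcripts. The intervals of these medians count features, which are not replicates.

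**Figure D1:**
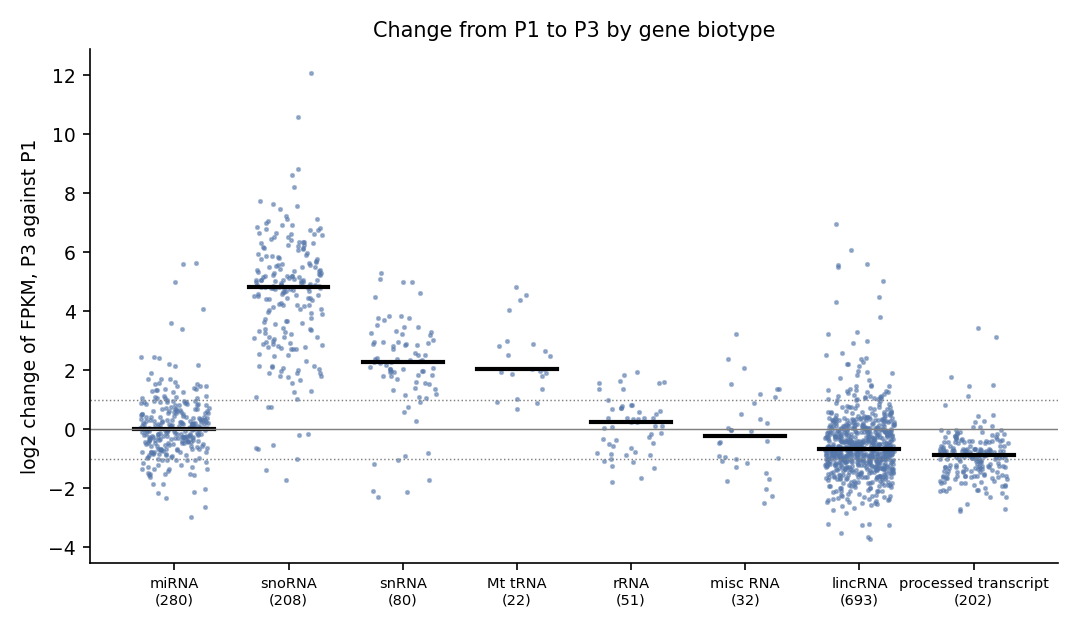
Log2 change of FPKM from P1 to P3 (vertical axis) for the tested features of 8 gene biotypes, with 1 point per feature, the median as a black bar, the number of features in brackets and dotted lines at a 2-fold difference. The snoRNAs lie highest, with a median of 4.80, and the miRNAs are centred near 0; the 2 highest points are snoRNAs listed at 0 at P1, whose height is set by the added 1 FPKM.

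The parts of the P3 value did not carry the same RNA. Over the resolved tested features the fine-step part held 95.2% of the snoRNA signal, 95.8% of the snRNA signal and 91.2% of the mitochondrial tRNA signal, but 70.3% of the miRNA signal and 50.8% of the lincRNA signal. The 118 resolved snoRNAs had 1489 alignments at P1, 16666 in the fine-step part and 429 in the coarse-step part of P3. Set against P1, their median change was 4.56 in the fine-step part and 0.22 in the coarse-step part. For the 70 resolved snRNAs it was 3.03 and -1.89, and for 9 resolved mitochondrial tRNAs it was 2.15 and -1.35. The median over all 1245 resolved features was -0.30 in the fine-step part and -0.85 in the coarse-step part, so a value near 0 in the coarse-step part lies above that of most features. In the fine-step part all 3 classes stood above P1. In the coarse-step part the median of the snoRNAs stood above that of all features, with 34 of 118 called higher, while snRNAs and mitochondrial tRNAs stood below it, with 2 of 70 and 0 of 9 called higher. Of the 118 snoRNAs 16, and of the 70 snRNAs 9, had 0 coarse-step alignments and were set at 3. With few alignments at P1 this setting alone can give a higher call, so part of the snoRNA count can come from it. Both parts were set against the same P1 library. Fragments of long RNAs were below P1 in each of them, with a median of -0.76 in the fine-step part and -0.74 in the coarse-step part for 552 lincRNAs, and -1.06 and -1.04 for 164 processed transcripts.

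Relative to P1, 327 of 1245 resolved features (26.3%) were called higher and 360 (28.9%) lower in the fine-step part. In the coarse-step part 73 (5.86%) were called higher and 539 (43.3%) lower. Over the 221 resolved miRNAs the median was 0.40 in the fine-step part and -0.87 in the coarse-step part, and the parts of single miRNAs are to be read against these values. A feature with 0 alignments in a part was set at 3 alignments for these counts and medians, which applied to 34 features in the coarse-step part and 0 in the fine-step part. Where P1 held few alignments, this setting alone can give a higher call.

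**Figure D2:**
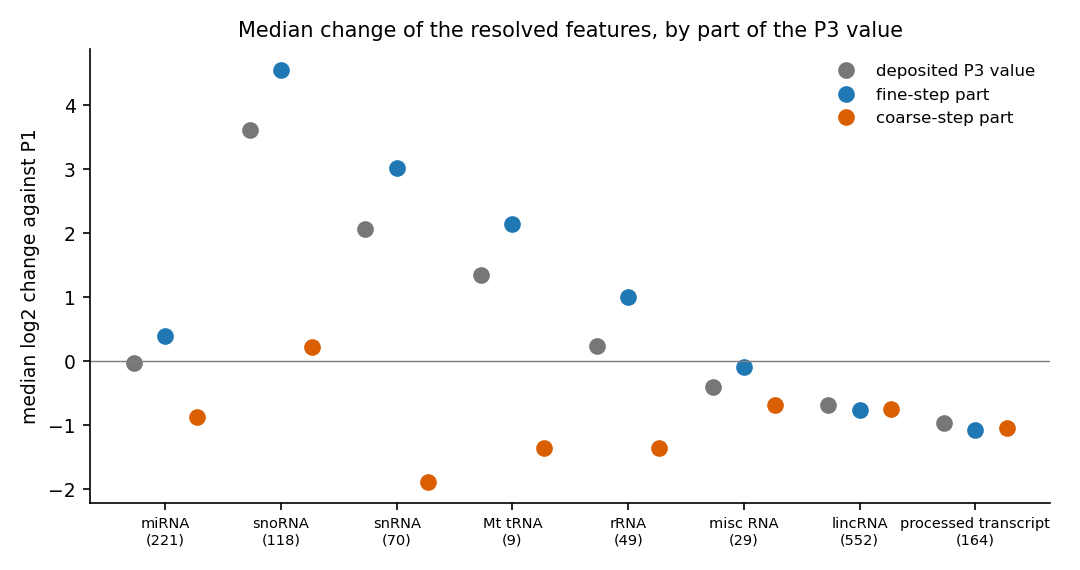
Median log2 change against P1 (vertical axis) of the features whose P3 value could be divided, for 8 biotypes with the number of features in brackets, shown for the deposited P3 value (grey), the fine-step part (blue) and the coarse-step part (orange). For snoRNAs the median is 4.56 in the fine-step part and 0.22 in the coarse-step part, whereas for lincRNAs they are -0.76 and -0.74.

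Among the snoRNAs, 198 of 208 tested features were called higher (95.2%, against 25.0% of all features) and 3 were called lower. The box C/D snoRNAs, which guide 2′-O-methylation and carry SNORD names, had a median change of 4.95 over 159 features, with 157 called higher and 0 lower. The box H/ACA snoRNAs, which guide pseudouridylation and carry SNORA names, had a median of 1.95 over 32 features, with 24 called higher and 3 lower. Over all 213 SNORD features the levels summed to 325668 FPKM at P1, to 14611410 at P3 and to 2748880 at P5, so that P3 stood above both neighbours in age. For the SNORA features the sums were 49212, 108879 and 59058 FPKM.

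The longer SNORA transcripts and the shorter SNORD transcripts also differ in length. Over 153 snoRNA features under 100 bases the median change was 4.99, and over 55 features of 100 bases or more it was 2.82. In the coarse-step part the medians were 0.31 for 78 resolved SNORD features and -0.35 for 31 resolved SNORA features, and in the fine-step part they were 5.13 and 2.87.

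SNORD113 belongs to the imprinted Dlk1-Dio3 region, in which its copies lie in a tandem array. One copy stood at 207 FPKM (2 alignments) at P1 and 93151 FPKM at P3, a change of 8.81 [6.96, 11.86], and at 10244 FPKM at P5. Another was listed at 0 at P1 and at 4343 FPKM at P3, with 50 fine-step and 0 coarse-step alignments, which makes it at least 13.2-fold higher if 3 alignments are taken as the floor at P1. Of 29 tested SNORD113 features, 28 were called higher, near the 95.2% of all tested snoRNAs. Their median was 4.24, and the 22 resolved ones held 3257 fine-step and 82 coarse-step alignments.

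SNORD115 and SNORD116 are the repeated snoRNAs of the Prader-Willi region, and few of their copies passed the filter. The 4 tested copies of SNORD116 lay between 198 and 463 FPKM at P1 and between 34938 and 37295 FPKM at P3, with changes from 6.24 to 7.55. At P5 these 4 copies lay between 1726 and 2191 FPKM. The 4 tested copies of SNORD115 had changes from 4.40 to 5.06, and together they held 933 fine-step and 10 coarse-step alignments at P3 after 27 alignments at P1. The copies of these arrays are close in sequence, so their separate values are uncertain.

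SNORD103 went from 83.6 FPKM (1 alignment) to 24837 FPKM, a change of 8.20 [5.73, 13.52], with 375 fine-step and 0 coarse-step alignments. SNORA62 went from 49.4 FPKM (2 alignments) to 19779 FPKM, a change of 8.62 [6.79, 11.69]. SNORA15 was listed at 0 at P1 and at 1519 FPKM at P3, at least 21.7-fold higher against the floor. The 4 lower snoRNA features whose interval left out 0 were all H/ACA snoRNAs, namely SNORA70 at -1.72, 2 copies of SNORA57 at -1.41 and -0.54, and SNORA17 at -1.02. In all 4 cases the coarse-step part stood below P1, at -1.32, -2.10, -1.16 and -0.87, and the fine-step part did so too.

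The snRNAs with the largest change were those of U5, the snRNA that aligns the exons at the heart of the spliceosome. The U5 copy with the largest change stood at 981 FPKM at P1 and 38551 FPKM at P3 (2532 FPKM at P5), a change of 5.30 [4.70, 5.96]. All 9 tested U5 features were called higher, with a median of 4.47. Of all tested snRNAs 85.0% were called higher, and of all features 25.0%. The 2 of them that could be divided held 199 fine-step and 2 coarse-step alignments.

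U2, which pairs with the branch point, had a median change of 2.85 over 25 features, 23 of them called higher. U1, which recognises the 5′ splice site, had a median of 1.94 over 28 features, with 21 called higher and 4 lower. Among all tested snRNAs 85.0% were called higher and 7.5% lower, against 25.0% and 23.7% of all features. Divided into parts, the 28 U1 features had a median of 2.90 in the fine-step part and -2.21 in the coarse-step part. In the latter 27 of 28 were called lower, against 43.3% of all resolved features. The 22 resolved U2 features had 3.65 and -1.92. One U6 copy went from 1 alignment (70.7 FPKM) to 43 fine-step and 0 coarse-step alignments (2409 FPKM), a change of 5.07 [2.54, 10.43]. U7, which processes histone messenger RNA, had 2 tested copies with changes of 2.89 and 3.44. The 5 snRNA features with the largest falls were 4 copies of U1, between -2.30 and -1.20, and a copy of U6 at -2.10. The snRNA genes have many near-identical copies, and the counting could split their reads.

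All 22 mitochondrial tRNAs passed the filter, 19 of 22 were called higher and 0 lower, against 25.0% and 23.7% of all features, and all 22 had an interval above 0. They are listed under clone names that were not paired with an amino acid here. The largest change was that of AY172581.18, with 14671 FPKM at P1 and 416924 FPKM at P3 (85642 FPKM at P5), a change of 4.83 [4.61, 5.05]. AY172581.3 followed with 10403 FPKM at P1 and 240985 FPKM at P3, a change of 4.53 [4.32, 4.76]. The 2 mitochondrial rRNAs differed less, with 0.08 [-0.17, 0.34] for AY172581.9 and 1.37 [1.22, 1.52] for AY172581.24.

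The ribosomal RNAs differed little as groups. The 30 tested 5S rRNA features had a median of 0.32 and the 21 tested 5.8S features a median of 0.10. In the parts, however, 5S features stood at 1.14 and -1.44 and 5.8S features at 0.85 and -1.16. Y RNAs, the partners of the Ro protein, had a median of 1.26 over 8 tested features. Of these 5 were called higher and 1 lower, against 25.0% and 23.7% of all features. In the 6 Y RNAs that could be divided the medians of the parts were 1.14 and -0.46. One Y RNA copy stood at 6529 FPKM at P1 and 61023 FPKM at P3 (3.22 [2.95, 3.51]), and another at 7123 FPKM at P1 and 1248 FPKM at P3 (-2.51 [-3.50, -1.65]). For 7SK, which holds the elongation factor P-TEFb inactive, the median over 17 features was -0.98, with 8 of 17 called lower (against 23.7% of all features) and 2 higher (against 25.0%). The small Cajal body RNAs, which guide the modification of snRNAs, had a median of 0.36 over 4 tested features, with 1 called higher and 0 lower. The share called higher, 25.0%, was that of all features. That one was SCARNA18, which stood at 636 FPKM at P1 and 24956 FPKM at P3 (5.29 [4.30, 6.52]), with 392 fine-step and 2 coarse-step alignments. Scarna15 was at 0.95 [0.30, 1.64], and SCARNA16, with 21 alignments at P1 and 9 at P3, was below the filter.

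Fragments of long transcripts were lower at P3. Of 693 tested lincRNA features, 227 (32.8%, against 23.7% of all features) were called lower and 52 higher, and of 202 processed transcripts 88 (43.6%) were called lower and 6 higher. The largest fall of a lincRNA was that of AABR07059723.1, from 3503 FPKM (53 alignments) to 261 FPKM (3 fine-step and 1 coarse-step alignments), a change of -3.74 [-5.81, -2.24]. Among processed transcripts, features of Trrap, a scaffold of histone acetyltransferases, and of Col6a3, a collagen VI chain, were at -2.72 [-3.71, -1.87] and -2.71 [-3.65, -1.88]. A feature of Syne1, a nuclear envelope spectrin, was at -2.79 [-4.81, -1.28], and another feature of Syne1 was at 1.44 [0.50, 2.49], so that stretches of 1 gene differed in direction. Dlx6as, an antisense transcript of the Dlx5/6 locus that marks GABAergic interneurons, stood at 9992 FPKM (47 alignments) at P1 and 839 FPKM (4 alignments) at P3 (749 FPKM at P5), a change of -3.57 [-5.65, -2.06].

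A few long transcripts went the other way. AABR07014161.1 stood at 147 FPKM at P1 and 18065 FPKM at P3, a change of 6.94 [5.81, 8.40]. LOC102549726 stood at 638 FPKM at P1 and 42728 FPKM at P3, a change of 6.06 [5.85, 6.29], but its gene overlaps SNORD52, and the reads of the host and of the snoRNA cannot be told apart. A pair of Pebp4 features was at 3.41 [2.81, 4.09] and 3.13 [2.57, 3.76], and for them the fine-step part was at 3.91 and 3.72 and the coarse-step part at 2.68 and 2.16.

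Of 493 miRNA features 280 were tested, of which 39 (13.9%, against 25.0% of all features) were called higher and 32 (11.4%, against 23.7%) were called lower. The counting interval lay above 0 for 95 features and below 0 for 84. miRNA features under Mir names had a median of 0.11 over 223 features, and those under clone names had a median of -0.68 over 55 features.

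**Figure D3:**
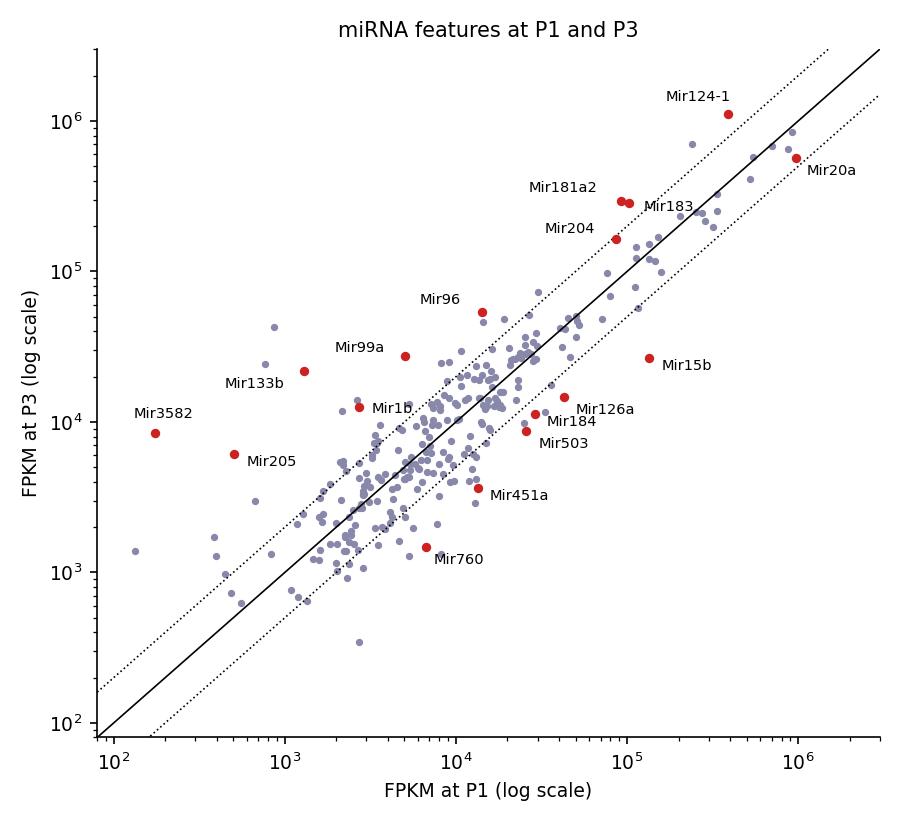
FPKM of the 280 tested miRNA features at P1 (horizontal axis) and P3 (vertical axis), both on log scales, with the line of equal levels, dotted lines at a 2-fold difference and named miRNAs in red. Most features lie between the dotted lines; Mir3582, Mir133b, Mir205 and Mir1b lie above them at low levels, and Mir96, Mir183, Mir181a2 and Mir124-1 at high levels.

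Among the features of at least 50 bases, the highest level at P1 was that of Mir20a, a member of the miR-17-92 cluster, which sustains proliferation. Mir20a stood at 970552 FPKM at P1 and 566303 FPKM at P3, a change of -0.78 [-0.83, -0.73]. Mir19a went from 871673 to 648415 FPKM (-0.43 [-0.49, -0.37]), and Mir106b from 526107 to 410884 FPKM (-0.36 [-0.42, -0.30]). The 2 loci of miR-19b share their mature sequence and were nearly level, Mir19b2 at -0.12 and Mir19b1 at -0.06, and both turn to 0.15 and 0.21 when the libraries are scaled to the median ratio of all features. The 3 loci of miR-124, the abundant miRNA of neurons, were all called higher. Mir124-1 stood at 391668 FPKM at P1 and 1120000 FPKM at P3, a change of 1.52 [1.47, 1.56], Mir124-3 at 1.52 and Mir124-2 at 1.55. Their levels went on to 2210000, 2200000 and 1410000 FPKM at P5. These loci share the mature sequence too, so their values are not independent.

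Markers of the labelled tissue were present at both ages, with Mir183, Mir96, Mir204 and the miR-124 loci the lowest of which was Mir96 with 14260 FPKM at P1. Mir183 and Mir96 belong to the sensory cluster of photoreceptors and hair cells. Mir183 stood at 103203 FPKM at P1 and 286739 FPKM at P3, a change of 1.47 [1.40, 1.55], and Mir96 at 14260 and 53459 FPKM, a change of 1.91 [1.71, 2.11]. Mir96 and Mir183 lie on chromosome 4 from 57463366 to 57463678 (Rnor_6.0, minus strand). Mir204 and Mir211 are enriched in the pigment epithelium. Mir204 went from 85619 to 163319 FPKM (0.93 [0.88, 0.99]), and the much lower Mir211 from 2090 to 5397 FPKM (1.37 [0.89, 1.86]). For Mir211 the change was 1.28 in the fine-step part (83 alignments) and 1.45 in the coarse-step part (47 alignments). Its coarse-step minus fine-step difference of 0.16 [-0.39, 0.70] lay above -1.38, the median of that difference over the resolved miRNAs.

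All 5 tested miR-181 loci, known from amacrine and ganglion cells, were called higher, with changes from 1.12 to 1.69. Of all tested miRNAs 13.9% were called higher, and of all features 25.0%. Mir181a2 stood at 91688 FPKM at P1 and 295836 FPKM at P3 (333186 FPKM at P5), a change of 1.69 [1.60, 1.78]. Mir181c stood at 18995 FPKM at P1 and 48346 FPKM at P3 (1.35 [1.16, 1.54]). For Mir181d, the only one that could be divided, the fine-step part was at 1.54 and the coarse-step part at 0.51. The neuronal list as a whole was mixed. Over 14 tested loci its median was 0.21, with 5 called higher and 1 lower, where 25.0% and 23.7% of all features and 13.9% and 11.4% of miRNAs were called. Over the 11 loci that could be divided, which leave out the miR-124 loci, the medians were 0.73 in the fine-step part and -0.90 in the coarse-step part, close to the median of all resolved miRNAs in the latter. Besides the miR-124 loci, those called higher were Mir138-1 at 1.08 [0.69, 1.48] and Mir138-2 at 1.05 [0.52, 1.60], and the one called lower was Mir219-1 at -1.04 [-1.35, -0.73]. These 3 were named after their values were seen. Mir219-1 was counted in the list, but Mir219 is not among the neuronal markers named when the comparisons were set out. No other listed locus was called lower. Mir7a-1, which had the highest level of the others at P1 and P3, was at 0.14 [-0.13, 0.41]. It was at 0.97 [0.70, 1.24] in the fine-step part and -1.96 [-2.77, -1.24] in the coarse-step part.

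The let-7 family, which marks developmental timing, was nearly level at this step. Of 10 loci, 0 were called in either direction. Of all tested miRNAs 13.9% were called higher and 11.4% lower, and of all features 25.0% and 23.7%. The let-7 changes ran from -0.47 to 0.54, and the median was 0.15. In the 4 loci that could be divided the medians were 0.94 in the fine-step part and -0.88 in the coarse-step part. Mirlet7g, which had the highest level, stood at 204589 FPKM at P1 and 232516 FPKM at P3. In contrast, the 4 tested partners of let-7 in its clusters were all above 0 on the deposited scale. Mir99a stood at 5042 FPKM (46 alignments) at P1 and 27558 FPKM at P3 (54344 FPKM at P5), a change of 2.45 [1.99, 2.94]. Mir125b1 was at 1.48 [1.19, 1.77], Mir125a at 0.94 [0.75, 1.14] and Mir99b at 0.42 [0.18, 0.65]. Mir99a and Mirlet7c-1 lie on chromosome 11 within 16052153 to 16052975 (Rnor_6.0) on the plus strand, and Mirlet7c-1 was at 0.30 [0.06, 0.54]. Mir99a was above P1 in each part, at 3.12 and 1.17, whereas Mir125b1 was at 2.26 in the fine-step part and -0.37 in the coarse-step part. Mir99b was at 1.28 [1.04, 1.52] in the fine-step part and -2.04 [-2.80, -1.37] in the coarse-step part. The median of all resolved miRNAs in the coarse-step part, -0.87, lay below Mir125b1 and above Mir99b.

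Of the miR-17-92 list 7 loci were tested, with a median of -0.40 and 1 called lower, Mir18a at -1.02 [-1.13, -0.92]. Of all tested miRNAs 11.4% were called lower, and of all features 23.7%, so this count does not set the list apart. All 7 were below 0 on the deposited scale, but for both miR-19b loci and for Mir17, at -0.07 [-0.26, 0.11], the difference was smaller than the shift of 0.27 that scaling to all features makes. The 6 members of the cluster itself lie on chromosome 15 from 100179879 to 100180663 (Rnor_6.0) and ranged from -1.02 to -0.06. The 6 loci of the related miR-106b-25 and miR-106a-363 clusters had a median of -0.10, with 0 called.

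Among the miRNAs that restrain the cell cycle, Mir15b had the largest fall of the 223 tested features under Mir names. It stood at 134684 FPKM (2699 alignments) at P1 and 26781 FPKM at P3 (104909 FPKM at P5), a change of -2.33 [-2.47, -2.19], so that P3 stood below both neighbours in age. Mir16, in the same primary transcript and with the same seed, stood at 274982 FPKM at P1 and 244658 FPKM at P3 (211170 FPKM at P5), a change of -0.17 [-0.24, -0.10], which turns to 0.10 under scaling to all features. Mir15b and Mir16 lie on chromosome 2 from 165605923 to 165606166 (Rnor_6.0, plus strand). Mir195, which shares the seed, was at 0.19 [-0.63, 1.02]. Mir503, which favours withdrawal from the cell cycle, went from 25733 FPKM (263 alignments) to 8720 FPKM (89 alignments), a change of -1.56 [-1.94, -1.19], and stood at 8760 FPKM at P5. Its parts were at -1.35 and -1.81. Its neighbour Mir322 was at 0.11 [-0.45, 0.68]. A second annotated copy of the pair on the X chromosome had its rno-mir-503-1 locus at -1.50, and the counting could split reads between the copies.

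The miRNAs of the imprinted Dlk1-Dio3 region, expressed from the maternal allele and abundant in neurons, had a median of 0.42 over 29 tested loci. Of these 5 were called higher and 0 lower, where 25.0% and 23.7% of all features and 13.9% and 11.4% of miRNAs were called, so the count of higher loci does not set the region apart. Those called higher were Mir433 at 1.04, Mir136 at 1.07, Mir329 at 1.09, Mir541 at 1.29 and Mir495, of which only Mir495 was named by the rule on levels and the others after their values were seen. The largest change was that of Mir495, from 8220 FPKM (75 alignments) to 24808 FPKM, 1.59 [1.22, 1.98]. Mir494, the most abundant at P1, went from 46155 to 26856 FPKM (-0.78 [-1.07, -0.50]). All 29 could be divided, and their median was 0.93 in the fine-step part and -0.41 in the coarse-step part. For Mir495 they were 2.40 and -0.41. Both coarse-step values lay above -0.87, the median of all resolved miRNAs in that part, and Mir495 did so by 0.46. For the 22 resolved SNORD113 snoRNAs of the same region the medians were 4.35 and 0.44.

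Families without a marked change were miR-30, with a median of -0.33 over 6 loci, miR-29, with -0.50 over 2 loci, miR-26 and miR-101, with -0.09 over 4 loci, and the miR-23, miR-27 and miR-24 clusters, with 0.31 over 5 loci. In none of these lists was a locus called in either direction on the deposited scale. Of all tested miRNAs 13.9% were called higher and 11.4% lower, and of all features 25.0% and 23.7%. The fine-step and coarse-step medians were 0.10 and -2.13 for 2 miR-29 loci. They were 0.74 and -0.47 for 4 loci of the miR-23, miR-27 and miR-24 clusters. Mir26b was at 0.50 and -1.38, against 0.40 and -0.87 for all resolved miRNAs. The Mir135 and Mir218 loci, whose families the study also followed, and Mir3565 stayed within 2-fold as well, with Mir135a at -0.15 [-0.44, 0.13], Mir135b at -0.32 [-0.86, 0.20], Mir218-2 at 0.41 [0.06, 0.76] and Mir3565 at 0.35 [0.02, 0.69]. For Mir218-2 the fine-step part was at -0.26 and the coarse-step part at 0.87.

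**Figure D4:**
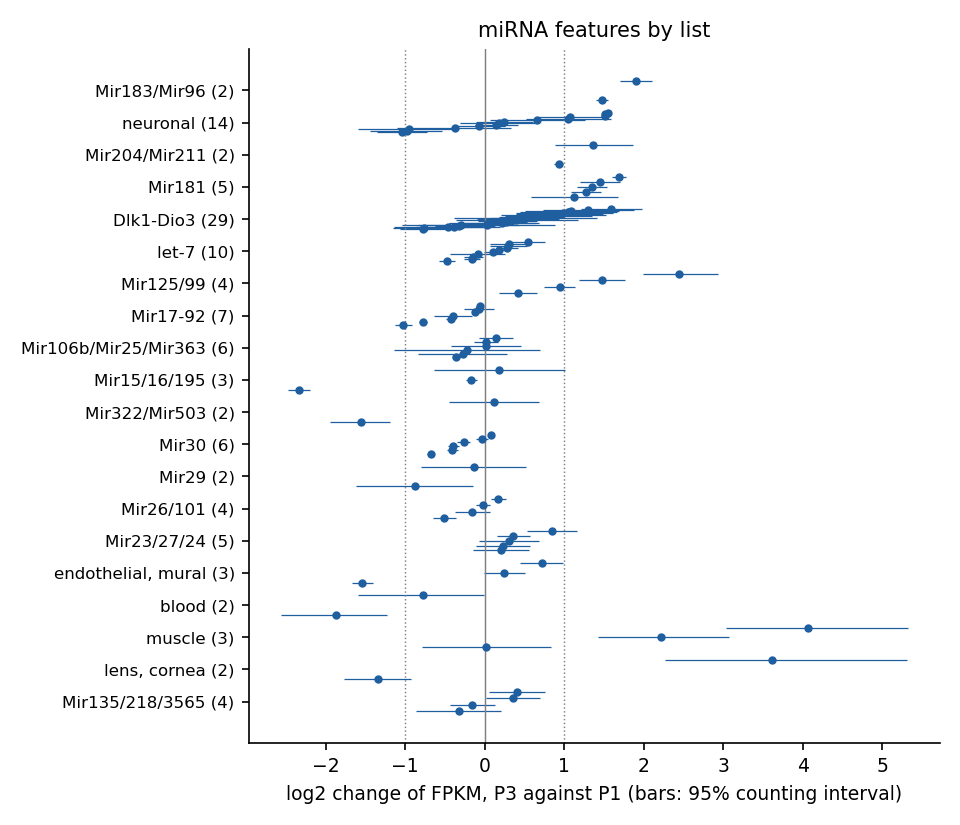
Log2 change of FPKM from P1 to P3 (horizontal axis) of the tested miRNA features in 20 lists, with the number of features in brackets, 95% counting intervals as bars and dotted lines at a 2-fold difference. The miR-181 loci, Mir183 and Mir96 lie to the right of the 2-fold line, the miR-17-92 loci lie left of 0 on this scale, and the muscle list spans 0.02 to 4.07.

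Several of the largest changes belonged to miRNAs known from tissues other than the neural retina. Muscle miRNAs make up the first group. Mir133b stood at 1296 FPKM (8 alignments) at P1 and 21836 FPKM (91 alignments) at P3, a change of 4.07 [3.03, 5.33]. Mir1b stood at 2715 FPKM (18 alignments) at P1 and 12650 FPKM (56 alignments) at P3, a change of 2.22 [1.43, 3.08]. At P5 they stood at 13522 and 14500 FPKM, and from P7 to P21 Mir133b lay between 580 and 1280 FPKM and Mir1b between 715 and 2769 FPKM.

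These muscle miRNAs sat in the coarse-step part. Mir133b had 10 fine-step and 81 coarse-step alignments, so that the level was 2567 FPKM in one part and 41104 FPKM in the other. Mir1b had 5 and 51 alignments, and its change was -1.18 [-2.97, 0.30] in the fine-step part and 3.15 [2.35, 4.01] in the coarse-step part. The third tested member of the list, Mir499, was level at 0.02 [-0.78, 0.83] and had 26 fine-step and 5 coarse-step alignments. The summed level of the 3 listed muscle features was 8385 FPKM at P1, reached 38930 at P3 and was 33201 at P5, and its lowest sum among the 5 later ages was 5764 FPKM. One more muscle feature was shorter than 50 bases and was left out.

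A pair of loci that are not in the list followed the same pattern. AABR07054963.1, which lies within 10 kb of Mir1b on chromosome 3 (175779553 to 175779655, Rnor_6.0, plus strand), stood at 766 FPKM (6 alignments) at P1 and 24116 FPKM at P3, a change of 4.97 [3.81, 6.45], with 7 fine-step and 117 coarse-step alignments. Mir3582 on chromosome 18 (2052459 to 2052576, plus strand), whose RefSeq product runs opposite to miR-133, stood at 173 FPKM (4 alignments) at P1 and 8461 FPKM at P3, a change of 5.60 [4.22, 7.51], with 11 fine-step and 119 coarse-step alignments. Whether the counting used the strand is not given in the sources used here, so reads from opposite strands cannot be told apart.

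Epithelial miRNAs of the lens and cornea also differed between the parts. Mir205, a miRNA of surface epithelia, stood at 503 FPKM (5 alignments) at P1 and 6154 FPKM (43 alignments) at P3 (6843 FPKM at P5), a change of 3.61 [2.27, 5.31], with 8 fine-step and 35 coarse-step alignments. Mir184, abundant in cornea and lens, stood at 28786 FPKM (240 alignments) at P1 and 11377 FPKM (64 alignments) at P3 (4653 FPKM at P5), a change of -1.34 [-1.77, -0.93]. Of its 64 alignments 7 were fine-step and 57 coarse-step, which places it at -4.43 [-5.76, -3.37] in one part and -0.43 in the other. The summed level of the 3 features of this list was 30238 FPKM at P1 and 18625 FPKM at P3, and 2 more features were too short.

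Of the mural and endothelial miRNAs, Mir143 differed between the parts. Mir143, of smooth muscle and pericytes, stood at 6414 FPKM (214 alignments) at P1 and 10555 FPKM at P3, a change of 0.72 [0.45, 0.99], with 47 fine-step and 201 coarse-step alignments. Its change was -1.52 [-2.01, -1.06] in the fine-step part and 1.56 [1.27, 1.84] in the coarse-step part. Its neighbour Mir145 was at 0.25 [-0.01, 0.51], with 0.01 and 0.45 in the parts. Mir126a, the endothelial miRNA, stood at 42554 FPKM at P1 and 14666 FPKM at P3 (14922 FPKM at P5), a change of -1.54 [-1.67, -1.41], and could not be divided.

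Of the blood miRNAs, Mir451a was called lower at P3. Mir451a, the erythroid miRNA, stood at 13378 FPKM (115 alignments) at P1 and 3660 FPKM (27 alignments) at P3, a change of -1.87 [-2.57, -1.23], with -2.37 in the fine-step part and -1.50 in the coarse-step part. Mir144 of the same transcript had 24 alignments at P1 and 3 at P3, too few for the filter. Mir142, of white blood cells, was at -0.78 [-1.59, -0.01] and was not called, with -0.48 [-1.34, 0.33] and -1.16 [-2.68, 0.08] in the parts. Of 6 blood features these 2 were tested, and the summed level was 21791 FPKM at P1 and 7148 FPKM at P3. How far other tissues in the pools contributed to the differences between P1 and P3 was not tested.

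The remaining large rises were of mixed kinds. Mir99a is described above. Mir3557 went from 2145 FPKM (52 alignments) to 11769 FPKM, a change of 2.46 [2.03, 2.91], and was above P1 in each part, at 3.05 and 1.44. Mir500 went from 2635 FPKM (39 alignments) to 14019 FPKM, a change of 2.41 [1.92, 2.94], with 3.31 in the fine-step part and -0.47 [-1.70, 0.60] in the coarse-step part. AC127784.1, at 861 FPKM at P1 and 42680 FPKM at P3 (5.63 [4.92, 6.45]), and AC112440.2, at 386 and 1708 FPKM (2.14 [1.54, 2.80]), are annotated as miRNAs but overlap SNORD43 and SNORD20, and the reads cannot be told apart from those of the snoRNAs. AABR07058517.1 and AABR07072264.1 held 40 and 45 fine-step and 0 coarse-step alignments at P3, after 3 and 8 at P1.

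The remaining large falls were mostly of loci with few alignments. AABR07028200.1 went from 44 to 6 alignments (-2.99 [-4.60, -1.71]) and AABR07003500.1 from 49 to 7 (-2.64 [-4.11, -1.44]). Mir760 went from 6653 FPKM (68 alignments) to 1466 FPKM (15 alignments), a change of -2.18 [-3.15, -1.32], and stood below P1 in each part, at -1.96 and -2.44. The other 5 loci named by the rule, all under clone names, were between -2.15 and -1.56.

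The parts of the P3 value were also compared directly with each other over the 221 resolved miRNAs, without setting them against the P1 levels. P1 still entered through the steps and through the filter. The median log2 difference, coarse-step minus fine-step level, was -1.38, and the coarse-step level was the higher one for 32 miRNAs. The exact counting interval of the ratio left out this median for 95 of 221 miRNAs, in 47 with more and in 48 with less signal in the coarse-step part. The other 59 tested miRNAs, each with an estimated 460 alignments or more at P3, could not be divided, and these include the miR-124, miR-19, Mir20a, Mir183 and Mir15b loci, so the values of their parts are not known.

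**Figure D5:**
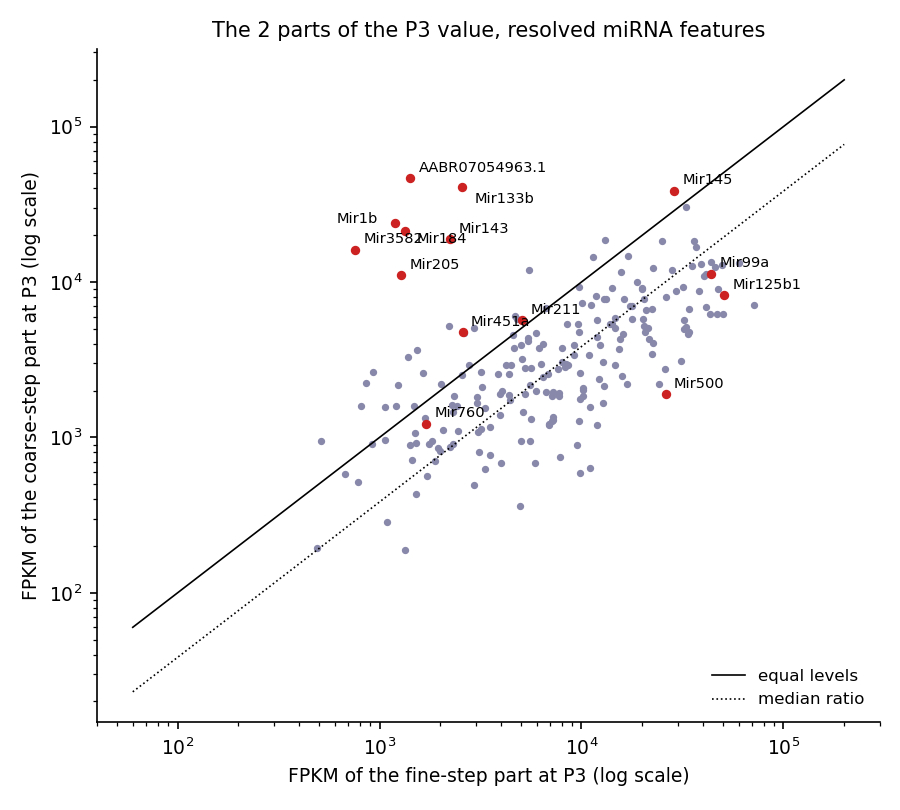
Level of the coarse-step part (vertical axis) against the fine-step part (horizontal axis) of the P3 value for resolved miRNA features with alignments in each part, in FPKM on log scales, with the line of equal levels (solid), the median ratio (dotted) and named miRNAs in red. Mir133b, Mir1b, Mir3582, AABR07054963.1, Mir205, Mir184 and Mir143 lie far above both lines; Mir500 lies below the dotted line.

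Seen over all 7 ages, P3 was the highest age for 176 of 208 snoRNAs (84.6%), 45 of 80 snRNAs (56.2%) and 7 of 22 mitochondrial tRNAs, but for 28 of 280 miRNAs (10.0%). Over all tested features P3 was the highest age for 340 of 1606 (21.2%). The filter used the alignments at P1 and P3 only, so these counts favour P1 and P3 as the highest age. Against P5, the other neighbouring age, P3 was higher by a median of 2.43 on the log2 scale for snoRNAs, 0.82 for snRNAs and 0.60 for mitochondrial tRNAs, and differed by -0.02 for miRNAs. P1 was the highest age for 330 of 693 lincRNAs and 119 of 202 processed transcripts, and the lowest for 157 of 208 snoRNAs. Of all 1606 tested features, P1 was the highest age for 562 and the lowest for 349.

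At the length limit of 50 bases, the 70 features of 50 to 54 bases had median levels of 1038 FPKM at P1 and 917 FPKM at P3, and the 49 features of 45 to 49 bases, which were left out, had 1938 and 1211 FPKM.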

How the data were processed

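Total RNA of pooled retinas was sequenced by the authors as small RNA libraries, 1 per age. Per the methods and the submitters' processing notes, reads were trimmed and mapped in Torrent Suite against Ensembl noncoding RNAs (Rnor_6.0), and the deposited FPKM per feature were made by the authors with Cufflinks, Cuffmerge and Cuffdiff 2.2.1.3. Whether strand was used is not given in the sources used here. The deposited table also holds the authors' own fold changes and tests, which were not used.

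Steps in the low FPKM values were searched at each locus length and found for 540 of 682 lengths. Alignments, intervals (exact binomial, 95%, counting error only) and parts of P3 were computed from them with Python 3.11.15, numpy 2.4.6, scipy 1.17.1 and pandas 2.3.3, and the scripts were tested on simulated data. For features that could not be divided, the alignments at P3 were estimated from the share of each step in their biotype. Changes are log2(FPKM + 1), for a locus length of at least 50 and a mean of at least 20 alignments. With 1 library per age no test was made between ages.

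Features were named as the 10 most abundant miRNAs, the 12 largest rises and falls of miRNAs and the 5 largest of other large biotypes (interval without 0, same sign under every scaling), the 3 most abundant of small biotypes, and up to 4 members of each list. The members and lists were chosen with earlier results of these data known, and 3 list patterns that had also caught other miRNAs were corrected after values were seen. One miRNA family is not reported here. Alternatives were other scalings, pseudocounts, filters, lengths, P5 as reference and, chosen after seeing the data, each part of P3.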

Additional observations from a re-analysis of the deposited data

Results flagged for a closer look

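Features shorter than 50 bases, 485 in number and outside every comparison above, held 83.3% of the summed FPKM of all features at P1 and 43.7% at P3. Both were noted because they lie outside the main measurement. FPKM divides by length, so the level of such a short feature is large for few alignments.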

How the results depend on the processing

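No paired analysis was possible because each age was 1 pooled library. The snoRNA median of 4.80 became 5.07 with scaling to the median ratio of all features, 5.20 with a mean of at least 100 alignments, 3.37 without a filter, 2.43 against P5 and 0.22 in the coarse-step part. The snRNA median became 1.78 without a filter, 0.82 against P5, 3.03 in the fine-step part and -1.89 in the coarse-step part, and that of mitochondrial tRNAs 0.60 against P5 and -1.35 in the coarse-step part. The miRNA median of 0.02 became 0.29 with scaling to all features, -0.25 per miRNA alignment, 0.14 with at least 100 alignments, 0.40 in the fine-step part and -0.87 in the coarse-step part. For lincRNAs it was -0.81 with the miRNA total, -0.39 with all features, -1.03 per miRNA alignment, -0.94 with at least 100 alignments, -0.34 without a filter, -0.16 against P5, and -0.76 and -0.74 in the parts. For processed transcripts these values were -1.04, -0.62, -1.27, -1.22, -0.77, -0.25, -1.06 and -1.04. All values in the parts cover only the resolved features, so they also differ from the first medians by the set of features. The deposited medians of the resolved features were 3.62 for 118 snoRNAs, 2.06 for 70 snRNAs and 1.35 for 9 mitochondrial tRNAs. For 221 miRNAs, 552 lincRNAs and 164 processed transcripts they were -0.02, -0.68 and -0.96.

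The count of higher features was 229 with at least 100 alignments, 1038 without a filter, 204 from 100 bases on and 73 in the coarse-step part. The count of lower features was 607 per miRNA alignment, 73 with at least 100 alignments and 1274 without a filter. The counts with no minimum length were not run, since changes were computed only for features of at least 50 bases. At P3 miRNAs held 38.8% and snoRNAs 48.6% of the summed FPKM, and 25.8% and 29.5% over all lengths.

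Directions turned in the coarse-step part for the lists of miR-125, miR-99 and miR-100 (-0.37), miR-23, miR-27 and miR-24 (-0.47) and Dlk1-Dio3 (-0.41), and for Mir500 (-0.47), Mir99b (-2.04), Mir125b1 (-0.37), Mir27b (-0.57), Mir376b (-0.83) and Mir495 (-0.41). The deposited intervals of these single miRNAs left out 0. Others whose interval held 0 also turned, among them Mir106a (0.14 to -2.03) and Mir7a-1 (0.14 to -1.96). The let-7 (-0.88) and neuronal (-0.90) medians, near 0 on the deposited scale, were also below 0 there. The median of all resolved miRNAs in that part was -0.87. The let-7 and neuronal medians, Mir99b, Mir106a and Mir7a-1 lay below it. The other lists and miRNAs given lay above it, so that their turns hold against P1 and not against this median. In the fine-step part they turned for the miR-29 list (0.10), Mir1b (-1.18), Mir143 (-1.52), Mir29b1 (0.027), Mir218-2 (-0.26) and Mir3565 (-0.39), where the median of all resolved miRNAs was 0.40. The medians for lens and cornea (1.14 to -1.55) and for mural and endothelial miRNAs (0.25 to -0.75) also turned there. So did smaller medians, for miR-106b and relatives (0.44), miR-26 and miR-101 (0.50), miR-15 and miR-16 (0.83), and Mir135, Mir218 and Mir3565 (-0.30). Several of these rest on 1 or 2 resolved loci. Scaling to all features turned Mir19b2 (0.15), Mir19b1 (0.21), Mirlet7i (0.11) and Mir16 (0.10). The level per miRNA alignment turned Mir30d (-0.13), Mirlet7g (-0.024), Mir143 (-0.10), Mir26a (-0.036), Mir218-2 (-0.16) and Mir3565 (-0.24), and the miRNA total turned Mir30d (-0.067). The cause was not tested. Depth limits features of few alignments, and with 1 library a side the spread between animals is unknown.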
